A study of Oryza sativa with 6 samples.

Results

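NAC transcription factors are proteins that only plants make. They bind DNA through a conserved N-terminal NAM domain, and their variable C-terminal part activates or represses target genes. In plants they set organ boundaries in the embryo and the shoot, switch on secondary wall formation in xylem, drive senescence and programmed cell death, and answer drought, salt and abscisic acid. In cereal grains, some NAC genes are known for expression in the endosperm, the storage tissue beside the embryo.

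The genes described here were chosen by annotation alone, as those whose Pfam column lists the NAM domain (PF02365). They numbered 148 of 61955 genes and lay on all 12 chromosomes, with 6 to 19 on each. RNA was measured in embryos taken about 15 days after flowering from a pair of near-isogenic indica rice lines, with 3 samples of each. NIL-D (EG, giant embryo) carries the GE allele of the landrace Dapeimi and is labelled CMP-/-, whereas NIL-X (CG, common embryo) carries the matching segment of the restorer line 187R and is labelled wild type. Both came from the cross of 187R with Dapeimi after repeated selfing. Each sample held embryos from several plants of one field plot, so the spread between samples is that between plots, and 1 pair of lines stands for the alleles. GE encodes a cytochrome P450 of the CYP78A family. Its gene OsZS_07G0416900 on chromosome 7 was at 0.1, 0.13 and 0.14 TPM in NIL-D and at 0.09, 0.04 and 0.68 TPM in NIL-X, too low to be tested, so its level does not check the labels.

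Values are TPM (transcript abundances scaled to a common total), and take gene length into account. A gene was tested where its mean over the 6 samples was at least 0.5 TPM. Differences are log2 fold changes of TPM + 1, NIL-D minus NIL-X, with the standard error (SE) from limma, and adjusted p-values are Benjamini-Hochberg values over all 21500 tested genes. A gene was called when its adjusted p was below 0.05 and the size of its log2 fold change reached 1. TPM hold no read counts, so the depth behind a value is unknown.

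Of the 148 NAC-domain genes, 115 had a TPM above 0 in at least 1 sample, 33 were listed at 0 in all 6 samples, and 54 were tested. The share tested was 36.5%, beside 34.7% of all genes. Of the 148, 13 also carry another Pfam domain, 7 of them among the tested genes, and their values may belong to a neighbouring gene joined to the model. The best match in Swiss-Prot was used to sort the others by the role of the nearest named protein. Such a match is a likeness, and does not show that the rice gene has that role.

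The embryo samples also held transcripts listed as markers of other grain tissues, and their levels differed between samples. Whether they came from those tissues was not tested. The summed TPM of 39 genes listed as endosperm markers (mainly glutelins, prolamins and starch enzymes) was 7852, 11290 and 5319 in NIL-D and 8734, 18510 and 20060 in NIL-X. Through a match by entry name, the list also took in proline transporters, at 6.2 TPM or less in every sample. Embryo markers, 14 genes that include oleosins, embryo globulin and VP1, summed to between 94920 and 123100 TPM in NIL-D and between 79600 and 93320 TPM in NIL-X. Most of that came from embryo globulin, cupincin and oleosins, which were abundant in all samples. Over the 11 tested, the median log2 fold change was -0.02. Without overlap, 2 were higher and 1 lower in NIL-D, beside 4.53% and 19.7% of all tested genes. The lower one, the knotted-1-like gene OsZS_03G0508300, was at 5.83 to 9.62 TPM in NIL-D and 14.4 to 18.4 TPM in NIL-X. Aleurone markers (12 genes) summed to between 9177 and 9789 TPM in NIL-D and between 6847 and 7832 TPM in NIL-X, mostly from lipid-transfer proteins and alpha-amylase 3E. The alpha-amylase 2A gene OsZS_06G0461000 went the other way and was called (log2 fold change -1.32, SE 0.18, limma adjusted p = 0.0379). It was at 1.54 to 2.16 TPM in NIL-D and 5.45 to 7.05 TPM in NIL-X. Green tissue markers (20 genes, 6 tested) summed to between 230.2 and 556.4 TPM and between 428 and 630.1 TPM. Nearly all of that came from 1 gene, OsZS_02G0051300, at 224.8 to 549.6 TPM and 416.1 to 617.3 TPM. In whole embryos, fewer cells of a type and less RNA per cell cannot be told apart.

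No NAC-domain gene was called between the lines. The limma test called 0 of 54, where 0.642% of all tested genes were called (138 of 21500), and the smallest adjusted p of a NAC-domain gene was 0.097. At an unadjusted p below 0.05 there were 16 of 54 (29.6%), 3 higher and 13 lower in NIL-D, beside 15.6% of all tested genes (3.6% higher and 12% lower). The values of the lines did not overlap for 17 of 54 (31.5%, beside 24.3% of all tested genes), with 3 higher in NIL-D and 14 lower. Among all tested genes, 4.53% were higher without overlap and 19.7% were lower, beside 5.56% and 25.9% of the NAC-domain genes. The median log2 fold change was -0.28 over the 54, and -0.15 over all tested genes. After median-ratio rescaling, which brought the median of all genes to -0.01, the median of the NAC-domain genes was -0.12, and 6 genes were higher and 7 lower without overlap, beside 10.4% and 10.1% of all tested genes.

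**Figure D1:**
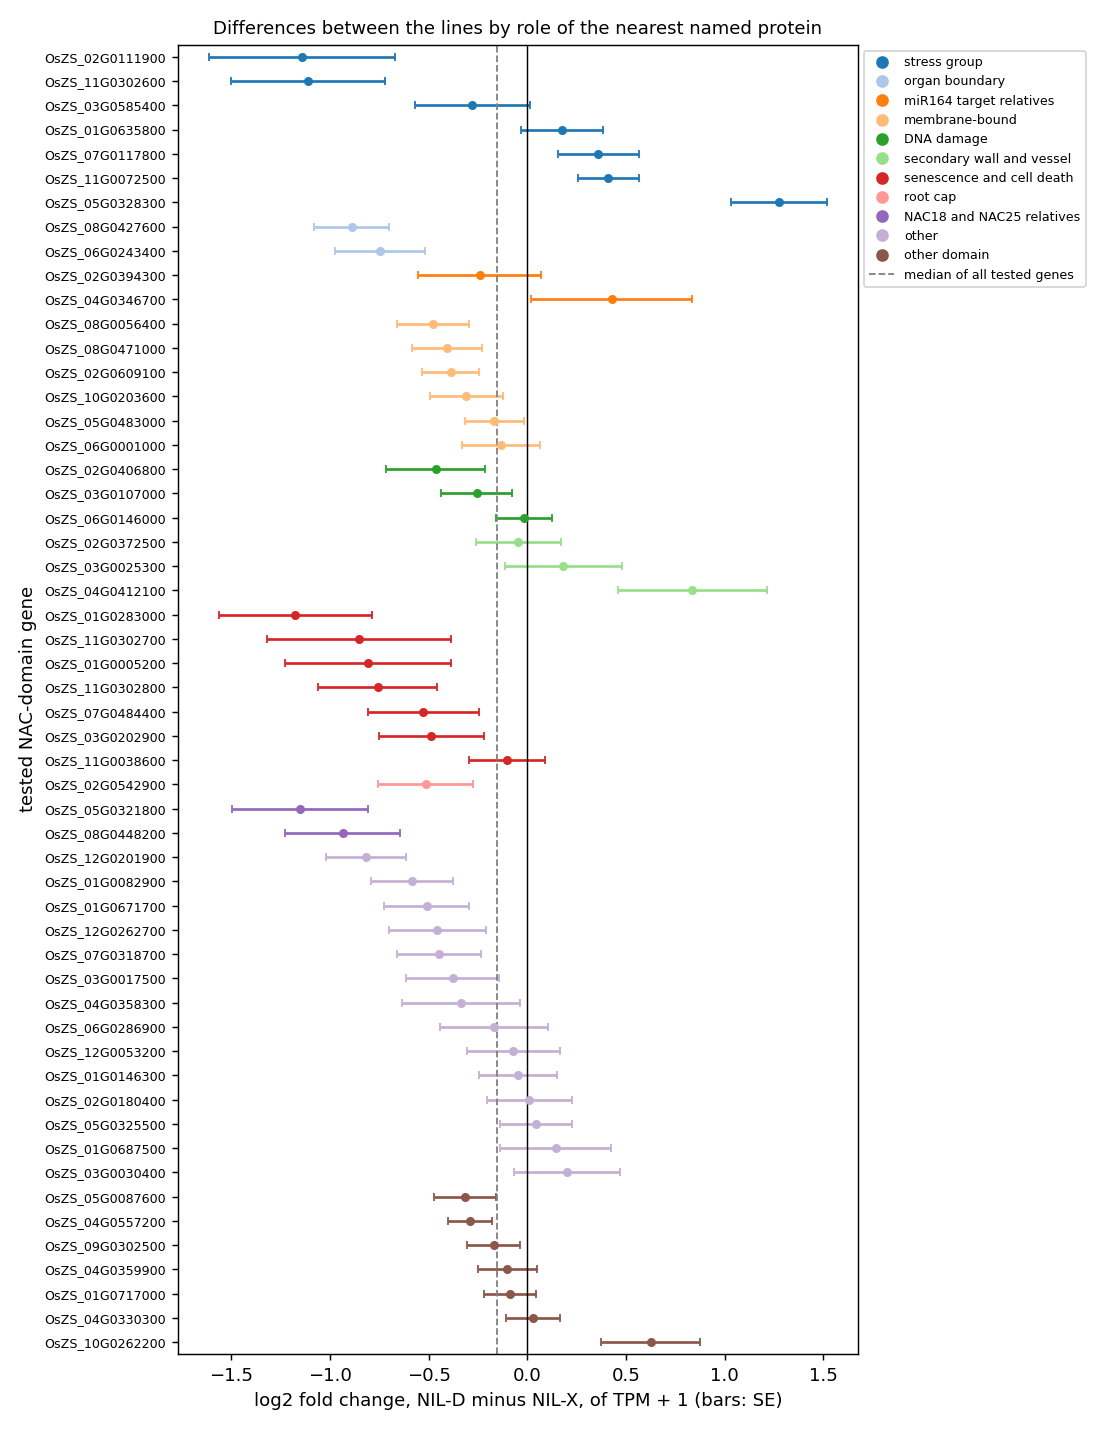
Log2 fold change of TPM + 1 (NIL-D minus NIL-X, horizontal axis) for each of the 54 tested NAC-domain genes, coloured by the role of the nearest Swiss-Prot protein. Bars are SE from limma with 3 samples per line, and the dashed line is the median of all tested genes at -0.15. Of the 54 genes, 41 lie below 0 and 5 lie at or beyond 1 in either direction.

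The genes with the NAM domain alone summed to 592.6, 597.6 and 711.5 TPM in NIL-D and 718, 817 and 781.6 TPM in NIL-X. Every NIL-D sample lay below every NIL-X sample, but the closest were 711.5 and 718 TPM. In these unrescaled TPM, 69.9% of the tested genes of any kind had a negative log2 fold change. Whether the lines stay apart in this sum after median-ratio rescaling was not tested. In each sample, 43.2% to 59.2% of this sum came from its 4 highest genes. Over all 148 genes, 21 had a mean of at least 10 TPM and 2 of at least 100 TPM.

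The gene with the highest mean, OsZS_01G0717000, is one of those with another domain. Its best match is the persulfide dioxygenase ETHE1, a mitochondrial enzyme of sulfur metabolism, and it measured 147, 154 and 126 TPM in NIL-D and 151, 142 and 160 TPM in NIL-X. These values overlapped.

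**Figure D2:**
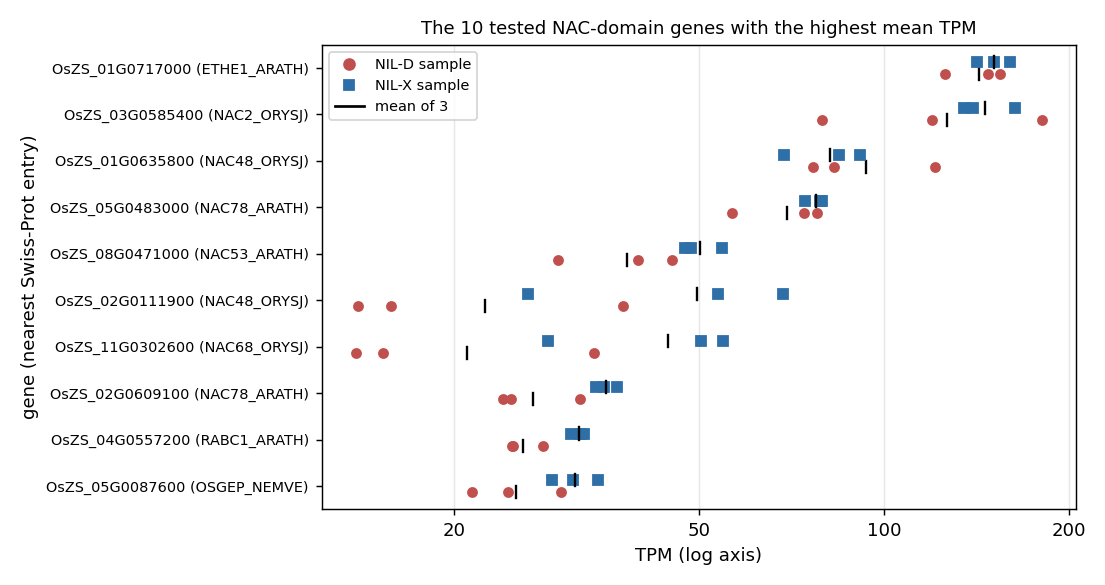
TPM (log axis) of the 10 tested NAC-domain genes with the highest mean, 1 point for each of the 3 samples per line, with the mean of each line as a black tick. The values of OsZS_01G0717000 lie between 126 and 160 TPM in both lines, and those of OsZS_02G0111900 between 13.9 and 68.6 TPM.

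Genes nearest to the stress-responsive NAC proteins of rice, which answer drought, salt and abscisic acid, summed to between 281.3 and 383.4 TPM in NIL-D and between 314.2 and 375.5 TPM in NIL-X. Of 10 such genes 7 were tested, none was called, and the values of 2 were higher in NIL-D without overlap, beside 4.53% of all tested genes. The most negative log2 fold changes of the group were -1.14 (SE 0.47) for OsZS_02G0111900, nearest to NAC48, and -1.11 (SE 0.39) for OsZS_11G0302600, nearest to NAC68, whose samples overlapped between the lines and are given with the endosperm markers. The RefSeq match of OsZS_11G0302600 is instead named NAC transcription factor 25, so its place in this group rests on the Swiss-Prot match alone. OsZS_03G0585400, matched to SNAC1, a regulator of stomatal closure under drought, was at 120, 79.1 and 181 TPM in NIL-D and 140, 135 and 164 TPM in NIL-X. The samples of NIL-D spanned the whole range of NIL-X. OsZS_01G0635800, nearest to NAC48 (OsNAC6), was at 76.6, 82.9 and 121 TPM in NIL-D and 91.6, 84.4 and 68.7 TPM in NIL-X, which also overlapped.

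Another gene nearest to NAC48, OsZS_05G0328300, had the largest log2 fold change of the 54 on the log2(TPM + 1) scale. With a pseudocount of 0.1 it was 1.40, and 4 genes with lower TPM had larger ones. It measured 17.3, 11.7 and 18.6 TPM in NIL-D and 4.28, 6.98 and 6.65 TPM in NIL-X. All 3 NIL-D samples were above all NIL-X samples, a log2 difference of 1.27 (SE 0.24, adjusted p = 0.097 by limma), short of the threshold. Leaving out 1 sample at a time gave log2 fold changes between 1.08 and 1.46 and limma adjusted p-values between 0.0606 and 0.309. OsZS_11G0072500, nearest to NAC71 (OsNAC5), a gene induced by abscisic acid and salt, was at 30.4, 27.8 and 26.8 TPM in NIL-D and 18.7, 25.6 and 19.4 TPM in NIL-X. The lines did not overlap, but the lowest NIL-D sample and the highest NIL-X sample were close (log2 fold change 0.41, SE 0.15, limma adjusted p = 0.288). OsZS_07G0117800, matched to NAC67, overlapped between the lines at 6.65 to 8.51 TPM in NIL-D and 4.69 to 7.45 TPM in NIL-X.

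Among 12 late embryogenesis abundant and dehydrin genes, which abscisic acid induces in seeds and stressed tissue, 11 were tested, 0 were called in either direction and 0 were without overlap, with a median log2 fold change of -0.57. Their summed TPM was 10380, 11680 and 24330 in NIL-D and 20950, 18860 and 21420 in NIL-X. Replicate 3 of NIL-D was above all other samples, and the other NIL-D samples were below all of NIL-X.

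Both tested genes nearest to the CUP-SHAPED COTYLEDON proteins were lower in NIL-D without overlap, beside 19.7% of all tested genes. In Arabidopsis these proteins keep the cells between organs small and let the shoot meristem form in the embryo. OsZS_08G0427600, named CUP-SHAPED COTYLEDON 3, measured 1.88, 2.21 and 1.33 TPM in NIL-D and 4.45, 4.25 and 3.78 TPM in NIL-X. The NIL-X samples were closer to each other than to any NIL-D sample (log2 fold change -0.89, SE 0.19, limma adjusted p = 0.127). OsZS_06G0243400, nearest to CUC2, was at 0.88, 0.31 and 0.2 TPM in NIL-D and 1.32, 1.44 and 1.47 TPM in NIL-X (log2 fold change -0.75, SE 0.23, limma adjusted p = 0.225). With a pseudocount of 0.1, its log2 fold change was -1.61. Both kept the separation of the lines after median-ratio rescaling, where 10.1% of all tested genes were lower without overlap.

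The microRNA miR164 targets several Arabidopsis NAC genes, CUC2 among them. Of 14 genes nearest to other targets, here NAC100, NAC79 and NAC22, 2 were tested. OsZS_04G0346700, known as OsNAC2, was at 6.82, 6.67 and 2.37 TPM in NIL-D and 5.01, 3.55 and 2.03 TPM in NIL-X. OsZS_02G0394300 was at 8.17, 5.92 and 5.63 TPM and at 7.02, 12.8 and 5.29 TPM. In both genes the lines overlapped.

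**Figure D3:**
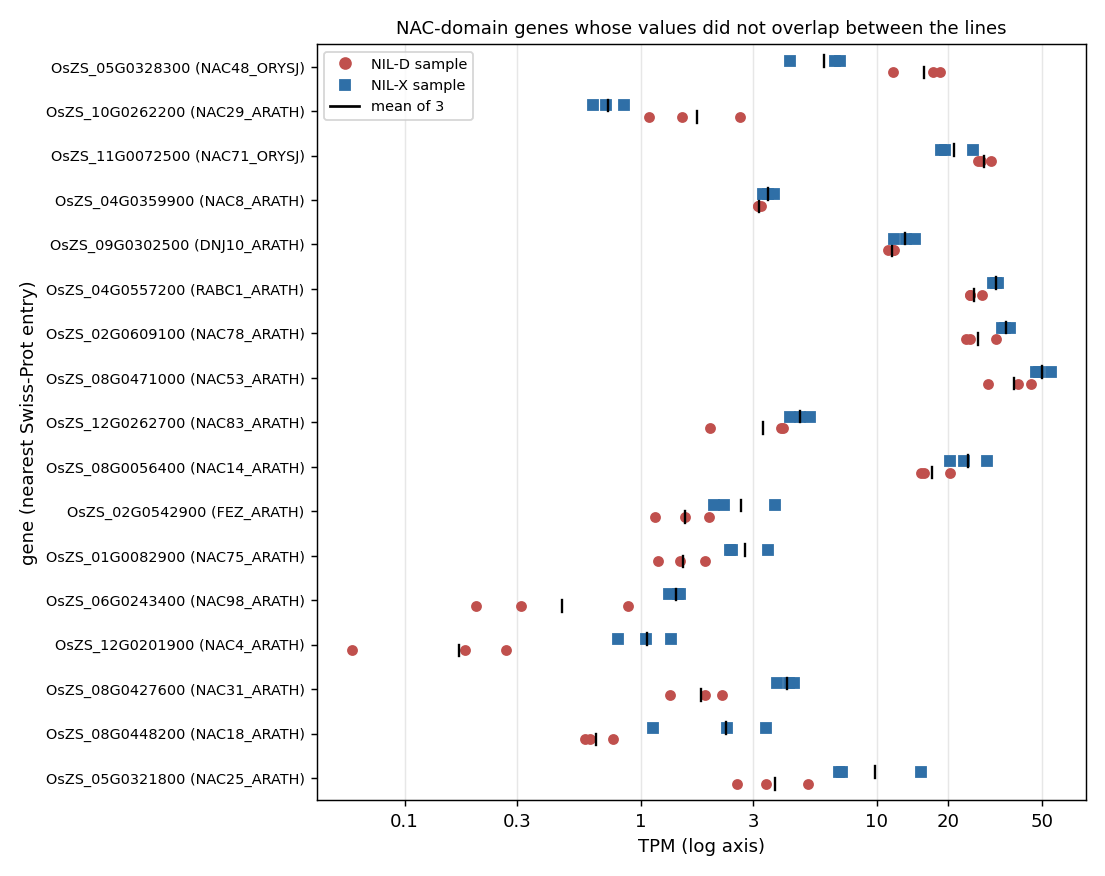
TPM (log axis) of the 17 tested NAC-domain genes whose 3 NIL-D and 3 NIL-X values did not overlap, 1 point per sample, with the mean of each line as a black tick, ordered by log2 fold change. The 3 genes at the top are higher in NIL-D and the other 14 are lower, and OsZS_05G0328300 lies at 11.7 to 18.6 TPM in NIL-D and 4.28 to 6.98 TPM in NIL-X.

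Some NAC proteins are held at a membrane and released by cleavage to enter the nucleus. The 6 genes nearest to such proteins all passed the filter and all had a negative log2 fold change, as had 69.9% of all tested genes, with a median of -0.35. After median-ratio rescaling, OsZS_05G0483000 (0.003) and OsZS_06G0001000 (0.014) turned positive. Their summed level was between 144.4 and 181.4 TPM in NIL-D and between 187 and 211.7 TPM in NIL-X. Of the 6, 3 were lower in NIL-D without overlap, beside 19.7% of all tested genes. None of these 3 kept the separation after median-ratio rescaling, where 10.1% of all tested genes were lower without overlap. OsZS_08G0471000, nearest to NAC53, was at 29.4, 39.8 and 45.1 TPM in NIL-D and 54.5, 48.5 and 47.5 TPM in NIL-X. OsZS_02G0609100, nearest to NAC78, which acts with NAC53 on proteasome genes in Arabidopsis, was at 24.0, 24.7 and 32.02 TPM and at 36.8, 34.0 and 35.1 TPM. OsZS_08G0056400, nearest to NAC14, had 20.4 TPM in its highest NIL-D sample and 20.5 TPM in its lowest NIL-X sample, so the lines only just separated. OsZS_05G0483000, the most abundant of the 6, was at 77.8, 56.5 and 74.0 TPM in NIL-D and 79.2, 78.7 and 74.4 TPM in NIL-X, and overlapped.

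SOG1 (NAC8) switches on the response to broken DNA in Arabidopsis. The 3 genes nearest to it that carry the NAM domain alone were all tested and overlapped between the lines. OsZS_04G0359900, also nearest to SOG1 but with PPR domains in its model, was at 3.24, 3.13 and 3.14 TPM in NIL-D and 3.29, 3.68 and 3.45 TPM in NIL-X. These values just separated, with a log2 fold change of -0.10 (SE 0.15) that was 0.03 after median-ratio rescaling, where the lines overlapped. OsZS_06G0146000 was at 16.8, 17.2 and 13.7 TPM in NIL-D and 17.01, 16.02 and 15.1 TPM in NIL-X. Its log2 fold change was -0.02 (SE 0.14) and turned positive under other scalings (0.14 after median-ratio rescaling).

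Regulators of secondary walls and vessels were near the filter. Of 13 such genes, 3 were tested, at 0.12 to 2.41 TPM over the samples. OsZS_04G0412100, nearest to the vessel regulator VND4 (NAC7), had 1.24, 2.41 and 0.22 TPM in NIL-D and 0.17, 0.12 and 0.25 TPM in NIL-X. It was high in NIL-D replicates 1 and 2, while replicate 3 was within the range of NIL-X (log2 fold change 0.84, SE 0.38, limma adjusted p = 0.344). With a pseudocount of 0.1, the log2 fold change was 1.90. Among 39 genes for secondary walls (laccases, cellulose synthases, xylan enzymes, COBRA-like proteins and MYB regulators), 12 were tested, none of them a laccase or COBRA-like gene. Of the 12, 0 were called, with 1 higher and 2 lower without overlap, beside 4.53% and 19.7% of all tested genes. Their median log2 fold change was 0.03.

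The genes nearest to regulators of senescence and cell death were lower in NIL-D in the median. Of 15, 7 were tested, with a median log2 fold change of -0.76, beside -0.15 over all tested genes. Of the 7, 0 were called or without overlap. Of these 7, 4 (OsZS_01G0283000, OsZS_01G0005200, OsZS_11G0302700 and OsZS_11G0302800) were among the genes whose range narrowed most on division by the endosperm markers, by 1.95 to 2.36 times. OsZS_07G0484400, OsZS_03G0202900 and OsZS_11G0038600, which did not narrow, had log2 fold changes of -0.53, -0.49 and -0.10. OsZS_01G0283000, nearest to NAC87, which promotes programmed cell death in the Arabidopsis root cap, was at 8.46, 16.4 and 9.82 TPM in NIL-D and 14.8, 37.5 and 32.8 TPM in NIL-X. NIL-D replicate 2 exceeded NIL-X replicate 1, so the lines overlapped (log2 fold change -1.18, SE 0.39, limma adjusted p = 0.249). OsZS_01G0005200, also nearest to NAC87, had 6.69, 16.8 and 8.75 TPM in NIL-D and 10.9, 19.3 and 28.4 TPM in NIL-X. Of 12 genes for chlorophyll breakdown, a target process of senescence NAC proteins, 11 were tested and 0 were called, while 3 were lower in NIL-D without overlap (beside 19.7% of all tested genes) and the median log2 fold change was -0.26.

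Consecutive gene numbers on chromosome 11 held genes of related kinds. OsZS_11G0302600, nearest to NAC68 in Swiss-Prot but named NAC transcription factor 25 in RefSeq, was at 13.8, 33.8 and 15.3 TPM in NIL-D. In NIL-X it was at 28.4, 50.4 and 54.7 TPM. OsZS_11G0302700, nearest to barley NAM-1, and OsZS_11G0302800, nearest to barley NAM-B1, belong to a family known in wheat and barley for senescence and the transfer of nitrogen to the grain. They had 0.52, 0.64 and 0.4 TPM and 1.38, 3.52 and 1.8 TPM in NIL-D, beside 0.39, 4.29 and 1.79 TPM and 3.25, 4.13 and 5.69 TPM in NIL-X. In all of them the lines overlapped. Whether reads were shared between these neighbours was not tested.

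Of 8 genes nearest to NAC18 and NAC25, 4 were above 0 in some sample and 2 were tested. Both were lower in NIL-D without overlap, beside 19.7% of all tested genes. OsZS_05G0321800, nearest to NAC25, was at 3.41, 5.09 and 2.57 TPM in NIL-D and 6.93, 15.4 and 7.12 TPM in NIL-X (log2 fold change -1.15, SE 0.35, limma adjusted p = 0.216). OsZS_08G0448200, nearest to NAC18, which acts in the Arabidopsis seed coat, was at 0.58, 0.76 and 0.61 TPM and at 2.33, 3.41 and 1.13 TPM (log2 fold change -0.93, SE 0.29, limma adjusted p = 0.23). Both separated the lines after median-ratio rescaling too, where 10.1% of all tested genes were lower without overlap. The samples of OsZS_05G0321800 ran over a 5.98-fold range, which became 2.34-fold when divided by the summed endosperm markers. With a pseudocount of 0.1, the log2 fold change of OsZS_08G0448200 was -1.55.

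Further genes lower in NIL-D without overlap included 5 with log2 fold changes between -0.82 and -0.29. OsZS_12G0201900, nearest to NAC4, was at 0.18, 0.27 and 0.06 TPM in NIL-D and 0.8, 1.35 and 1.05 TPM in NIL-X, and its log2 fold change was -0.82, or -2.17 with a pseudocount of 0.1. OsZS_02G0542900, nearest to FEZ, which directs divisions of root cap stem cells, was at 1.94, 1.54 and 1.15 TPM and at 2.04, 3.72 and 2.26 TPM. OsZS_01G0082900 (nearest to NAC75), OsZS_12G0262700 (nearest to NAC83, a repressor of vessel formation) and OsZS_04G0557200, a model that holds a Ras domain too, also lay in that range. After median-ratio rescaling, the lines overlapped in OsZS_02G0542900 and OsZS_12G0262700. OsZS_09G0302500, a model named for NAC17 that holds a DnaJ domain, had 11.79 TPM in its highest NIL-D sample and 11.83 TPM in its lowest NIL-X sample. OsZS_10G0262200, nearest to the senescence regulator NAC29 and with an Exo70 domain beside the NAM domain, was the remaining gene higher in NIL-D, at 1.09, 1.49 and 2.63 TPM against 0.71, 0.63 and 0.85 TPM.

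Several of these genes were high and low in the same samples as the endosperm markers. When each gene's TPM was divided by the summed endosperm markers of its sample, the ratio of its highest to its lowest sample became smaller for 15 of 54 NAC-domain genes (27.8%), beside 11.8% of the 20325 tested genes above 0 in all samples. This division was devised after the values had been seen. The sum itself ran from 5319 TPM in NIL-D replicate 3 to 20060 TPM in NIL-X replicate 3. A gene with nearly constant TPM could therefore only become more variable, and the shares also depend on how variable the genes were. Genes lower in NIL-D also tend to narrow, because the sum was lowest in a NIL-D sample and highest in NIL-X samples. The sum follows its most abundant genes, and the listed genes did not all differ between the lines in the same direction. The ratio of highest to lowest sample became more than 1.5 times smaller for 8 of 54 (14.8%, beside 4.43%), and more than 2 times smaller for 7 (13%, beside 1.13%). OsZS_02G0111900, nearest to NAC48, ran from 15.8, 37.7 and 13.9 TPM in NIL-D to 26.3, 68.6 and 53.7 TPM in NIL-X, a 4.92-fold range that came to 1.84-fold after the division. The range of OsZS_01G0283000 went from 4.43-fold to 1.88-fold, that of OsZS_11G0302600 from 3.95-fold to 1.85-fold and that of OsZS_01G0005200 from 4.24-fold to 1.93-fold. The organ boundary gene OsZS_08G0427600 was among the 15, with a range 1.24 times smaller, whereas OsZS_05G0328300 became more variable.

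The summed endosperm markers were also added to the model as a covariate, again after the values had been seen. Since the same markers had ordered the 8 genes that narrowed by more than 1.5 times, the covariate is no separate evidence for them. Their log2 fold changes came to -0.12 (SE 0.31) in OsZS_02G0111900, -0.32 (SE 0.32) in OsZS_11G0302600, 0.003 (SE 0.38) in OsZS_01G0005200 and -0.38 (SE 0.31) in OsZS_01G0283000. They were -0.60 (SE 0.28) in OsZS_12G0201900, -0.67 (SE 0.42) in OsZS_05G0321800, -0.10 (SE 0.52) in OsZS_11G0302700 and -0.29 (SE 0.35) in OsZS_11G0302800. In the same fit OsZS_08G0427600 was at -0.79 (SE 0.28) and OsZS_05G0328300 at 1.33 (SE 0.36). Endosperm NAC factors are known to regulate reserve genes in cereals. Of 41 endosperm reserve genes, most of which are also on the marker list, 36 were tested. Of the 36, 0 were called, beside 0.642% of all tested genes, and the median log2 fold change was -0.67. Without overlap, 2 were higher and 8 lower in NIL-D, beside 4.53% and 19.7% of all tested genes. At an unadjusted limma p below 0.05 there were 13, beside 15.6% of all tested genes. The part of endosperm in these differences was not tested.

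**Figure D4:**
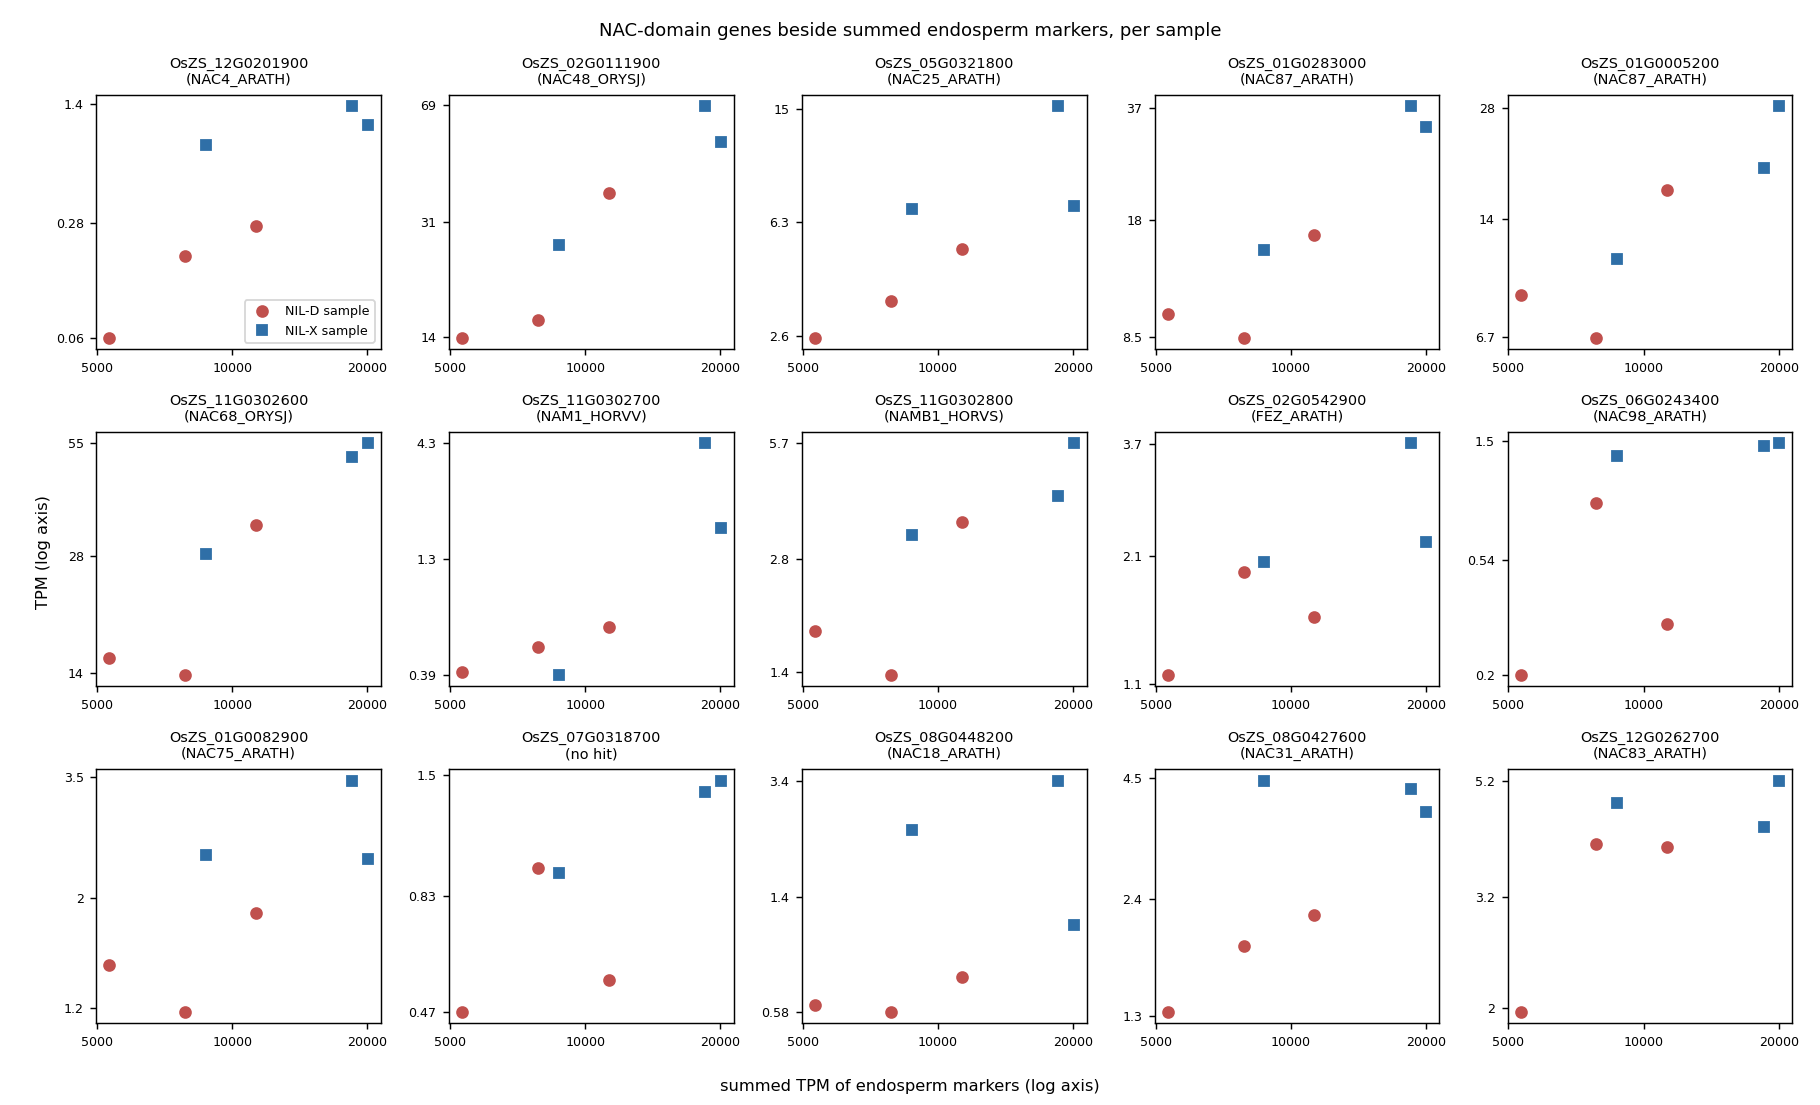
TPM of the 15 tested NAC-domain genes whose range over samples narrowed on division by the endosperm markers (vertical, log axis). The horizontal log axis is the summed TPM of the 39 genes on the endosperm marker list, with 1 point per sample, 3 per line. The panels run from the gene that narrowed most to the one that narrowed least, and in OsZS_02G0111900 both measures are lowest in NIL-D replicate 3, at 13.9 TPM and 5319 TPM.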

How the data were processed

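RNA of 6 embryo samples was analysed, 3 each of NIL-D and NIL-X, grouped by their titles. Per the paper's methods, reads were trimmed (SeqPrep, Sickle), mapped to the ZS97RS3 genome by TopHat, assembled by Cufflinks and quantified by RSEM. The authors deposited TPM per gene and sample, with gene length, annotation and their own line means, which were not used. The submitters' processing notes name Bowtie 0.12.2 and a mouse build, which the rice gene names contradict.

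Members were read from the Pfam column. Tests used limma 3.58.1 in R 4.3.3 (lmFit, then eBayes with its trend option). Log2(TPM + 1) was the response, and genes under 0.5 TPM in mean were left out. The code was tested on simulated data. The study's count tools were not used, because TPM are not counts. A RefSeq gene list of another rice assembly matched 59 of the 148 genes by name, and 124 had a Swiss-Prot match. No coordinates were taken. Other steps used Python 3.11.15, pandas 2.3.3, numpy 2.4.6 and matplotlib 3.10.9.

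The members, gene lists and tests were chosen with earlier results of these data known, and the role groups were drawn up after the values had been seen. Genes were named if called in any fit, if the lines did not overlap (at most 12 per direction), if among the 10 highest in mean TPM, or if tested and near a protein of known role. The settings varied were the pseudocount (0.1), the filter (none, or 5 TPM in mean), the scaling (quantile normalization or median-ratio), the eBayes trend, a replicate block, the fold change limit, and each sample's presence. The fit with summed endosperm markers as a covariate, and the division by them, were added after seeing the data. An earlier setting of the division kept only genes narrowed at least 1.9 times. That value had been picked from the members' own ratios, so it was replaced by any narrowing, with 1.5 and 2 beside it.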

Additional observations from a re-analysis of the deposited data

How the results depend on the processing

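The count of 0 NAC-domain genes called by limma held in all 15 alternatives. The count of called genes, 138 of 21500, was 57 of 14067 with a mean TPM of at least 5, 93 of 33861 with no filter, and 23 with the endosperm covariate, which was chosen after seeing the data. It was between 37 and 611 with 1 sample left out, highest without NIL-D replicate 3 and lowest without NIL-X replicate 1. At an unadjusted p below 0.05, 10 NAC-domain genes were counted with a mean of at least 5 TPM, where only 28 were tested, and 5 with the covariate, and between 6 and 18 with 1 sample left out (6 without NIL-X replicate 2). The median log2 fold change of the NAC-domain genes was -0.074 with no filter (115 genes), -0.12 after median-ratio rescaling and -0.13 after quantile normalization, and between -0.31 and -0.22 with 1 sample left out. With the replicate block, 43 genes were called, none of them a NAC-domain gene. Same-numbered samples correlated at 0.0164, 0.202 and 0.199 in their deviations from the line means, the last 2 being the highest between any NIL-D and NIL-X samples. The paper's plots held both lines, but the titles give replicate numbers and no plot, so the numbers were not taken as pairs. NIL-D replicate 1 deviated most like NIL-X replicate 2.

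Of the 42 named genes, 30 kept their direction in each alternative that tested them. Only 22 were tested in all 15, since 22 reached a mean of 5 TPM. Median-ratio rescaling turned OsZS_01G0717000 (0.084), OsZS_02G0372500 (0.003), OsZS_05G0483000 (0.003), OsZS_06G0001000 (0.014), OsZS_06G0146000 (0.14), OsZS_04G0359900 (0.032) and OsZS_11G0038600 (0.025) positive. Quantile normalization did so for OsZS_02G0372500 (0.13), OsZS_06G0001000 (0.064), OsZS_06G0146000 (0.14), OsZS_04G0359900 (0.10) and OsZS_11G0038600 (0.10). The covariate turned OsZS_01G0005200 (0.003), OsZS_01G0635800 (-0.15), OsZS_01G0717000 (0.022), OsZS_02G0372500 (0.12) and OsZS_06G0146000 (0.03). With 1 sample left out, the ranges crossed 0 for OsZS_03G0585400 (-0.57 to 0.017), OsZS_01G0635800 (-0.023 to 0.30), OsZS_01G0717000 (-0.15 to 0.001), OsZS_02G0372500 (-0.11 to 0.10), OsZS_03G0025300 (-0.015 to 0.48), OsZS_06G0146000 (-0.075 to 0.08) and OsZS_02G0394300 (-0.49 to 0.077). The pseudocount of 0.1 moved low genes most, such as OsZS_12G0201900 (-0.82 to -2.17). The cause was not tested.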
